A study of Mus musculus with 18 samples.

Results

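The translational landscape of the mouse forelimb bud (FL) was described from 6 of the 18 libraries of the series, namely 3 replicates of Ribo-Seq and 3 of RNA-Seq. Ribo-Seq sequences ribosome-protected fragments (RPFs), the stretches of mRNA shielded by a ribosome, and RNA-Seq sequences fragments of the poly(A) mRNA of the same tissue. The FL libraries were chosen by their sample labels and no measured value was used in the choice. The remaining 12 libraries cover the neural tube (NT), dissected from the same embryos, and sorted mesodermal cells, and the latter were not analysed here.

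All FL and NT samples came from FVB embryos at embryonic day E11.5, with no engineered allele and no compared treatment stated for them. The embryos were dissected in medium containing cycloheximide, an inhibitor that holds ribosomes on the mRNA, so that every library of both tissues shares this exposure. Neural tubes were frozen for some experiments of the study and otherwise dissociated with papain before the cells were divided between Ribo-Seq and RNA-Seq. Which of these applied to the NT libraries is not stated, and for FL this step is not described separately. The labels do not say how many embryos were pooled in a replicate, and p-values therefore measure the spread between these samples only.

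Translational efficiency (TE) of a gene is the level of its RPFs over the level of its mRNA on the coding sequence (CDS), which approximates how densely ribosomes occupy each copy of the mRNA. The early limb bud is a mesenchyme covered by ectoderm, patterned by Sonic hedgehog from its posterior margin, by FGFs from the ridge at its tip, and by Wnt and BMP signals, with Hox genes marking position along the limb. Upstream AUGs and upstream open reading frames (uORFs) in a 5′ leader are known to capture scanning ribosomes before the main start codon, and they are among the best studied means of lowering the translation of an mRNA.

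FL Ribo-Seq libraries held 12967893 to 17231298 reads on the 11231 genes of the deposited table and FL RNA-Seq libraries held 24555103 to 27993385. The FL Ribo-Seq library of replicate 3 stood apart from the other two. Its log2 levels correlated at 0.886 and 0.896 with those of replicates 1 and 2, which correlated at 0.976 with each other, while the 3 RNA-Seq libraries correlated at 0.983 to 0.987 (Pearson, across 11231 genes, which share library and depth). Within replicate 3 the RPF levels followed the mRNA levels at 0.908, against 0.729 and 0.74 within replicates 1 and 2. It was also nearer to the NT Ribo-Seq libraries, at 0.8 to 0.823 against 0.708 to 0.78 for the mean of FL replicates 1 and 2. Medians of gene groups are therefore given per replicate, and counts of called genes are followed by those without replicate 3.

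Markers of limb mesenchyme were checked against the FL label. Of 6 markers found, 5 had more mRNA in FL than in NT by limma at an adjusted p under 0.05, where 10.3% of all genes were higher and 12.3% were lower, and *Lhx2*, named here after its value was seen, did not pass. Their summed normalized mRNA level was 30109 to 36273 in FL libraries and 3473 to 3958 in NT libraries. The 3 neuronal markers found summed to 534 to 909 in FL and to 26047 to 36740 in NT. The FL Ribo-Seq library of replicate 3 carried RPFs of *Hoxd13*, a gene of the distal limb, at 3724 normalized reads against 5896 and 6729 in replicates 1 and 2. In Ribo-Seq the limb markers summed to 24429, 27815 and 33791 normalized reads in the 3 FL libraries and to 2562 to 4124 in NT, and the neuronal markers to 1219, 784 and 906 in FL and to 63018 to 71607 in NT. The summed markers thus went with the label in each of the 6 FL libraries. FL buds also held blood cells, macrophages and endothelium, which are described with their own TE at the end.

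TE spread widely in FL. Log2 TE was log2(RPF + 1) minus log2(mRNA + 1) of normalized reads, centred on the median gene of the replicate, so that a value of 0 is the TE of the median gene and fold changes of poorly read genes are understated. The fold between the 5th and the 95th percentile of genes was 32.7 in replicate 1 and 29.3 in replicate 2. In replicate 3 it was 6.55. For the mean of the 3 replicates it was 15.8, and 29.2 without replicate 3. The number of genes at least 3-fold under the median was 2070 and 1995 in replicates 1 and 2 and 584 in replicate 3, and the number at least 3-fold over it was 1500, 1398 and 78. Both tails were thus shorter in replicate 3.

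**Figure D1:**
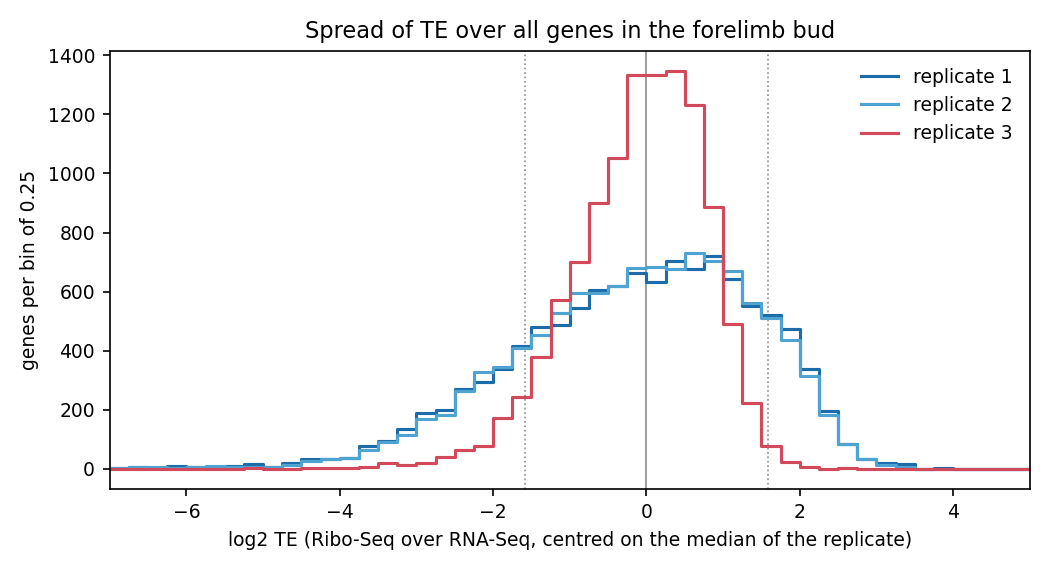
Number of genes (vertical axis, in bins of 0.25) against log2 TE (horizontal axis) for the 11231 genes in each FL replicate, with dotted lines at 3-fold from the median. Replicates 1 and 2 overlay each other and span 32.7-fold and 29.3-fold between the 5th and 95th percentile, whereas replicate 3 spans 6.55-fold.

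The order of genes was largely shared among replicates even where the size was not. Log2 TE correlated at 0.935 between replicates 1 and 2, at 0.753 between 1 and 3 and at 0.784 between 2 and 3, and 75% of genes lay on the same side of the median in all 3. The slope of log2 TE in replicate 3 on the mean of the other two was 0.44.

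Genes were called TE-low or TE-high where limma gave an adjusted p under 0.05 over all genes and TE was at least 3-fold from the median, which is 1.58 on the log2 scale. TE-low genes numbered 1508 (13.4% of genes tested) and TE-high genes 698 (6.21%). Without replicate 3 the counts were 2027 (18%) and 1430 (12.7%). Of the 1508 TE-low genes, 1501 lay under the median in all 3 replicates, 434 passed 3-fold in all 3, and 958 passed it in replicates 1 and 2 only. Of the 698 TE-high genes, 694 lay over the median in all 3, 46 passed 3-fold in all 3, and 621 passed it in replicates 1 and 2 only. Without replicate 3, 1490 of the TE-low genes and 696 of the TE-high genes were called again. The median log2 TE of TE-low genes was −2.65, −2.53 and −1.28 in the 3 replicates and that of TE-high genes was 2.21, 2.21 and 1.05. Since replicate 3 entered these calls, its direction was also read for genes called on replicates 1 and 2 alone. Of those 2027 TE-low genes, 1956 (96.5%) lay under the median in replicate 3 and 481 passed 3-fold there, and of those 1430 TE-high genes, 1399 (97.8%) lay over it and 53 passed 3-fold.

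TE-low genes occurred at every mRNA level. Among the 2808 genes with the highest mRNA level 20.4% were TE-low and 4.45% were TE-high, whereas among the 2808 with the lowest level 10.4% were TE-low and 8.73% were TE-high. This level is reads per gene, not divided by CDS length, so that long genes rank higher. It is also the denominator of TE, and the part of length and denominator in these shares was not tested. Only 14 TE-low genes had at most 3 RPF reads in every replicate.

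The 5 TE-low genes with the most mRNA reads are described first, a choice that uses the TE call itself and favours long genes. *Flna*, which encodes the actin crosslinker filamin A, had 58461, 64807 and 52775 normalized mRNA reads and 14417, 16378 and 20409 RPF reads in replicates 1 to 3. Its log2 TE was −1.80 ± 0.36 (SD, n = 3; limma adjusted p = 0.0053, the smallest adjusted p of the fit, shared by 500 genes). *Huwe1*, a ubiquitin ligase, had log2 TE −3.43, −3.35 and −1.19. Replicate 3 was the least low in both genes. *Dync1h1*, the heavy chain of cytoplasmic dynein, had log2 TE −3.55, −3.48 and −1.15, *Prpf8*, a core spliceosome protein, had −3.60, −3.38 and −0.67, and *Son*, a splicing cofactor, had −2.80, −2.88 and −1.36.

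Among the TE-high genes with the most mRNA reads, *Actb*, encoding β-actin, had 16971, 17817 and 15998 normalized mRNA reads and 150713, 158770 and 50976 RPF reads, a log2 TE of 3.15, 3.14 and 1.66. *Ppia*, encoding cyclophilin A, had 2.16, 1.99 and 0.91, and *Fkbp4*, a co-chaperone of HSP90, had 1.96, 1.87 and 1.00. Both lost the TE-high call without replicate 1 or without replicate 2. *Hba-x*, the embryonic zeta globin of red cells, had log2 TE 3.30, 3.40 and 1.84. In each of these genes replicates 1 and 2 lay close together and replicate 3 was nearer to the median.

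The highest TE among genes with a symbol and at least 100 normalized reads was that of *H2afx*, encoding the variant histone H2A.X, at 3.97, 4.55 and 2.69. Its mRNA reads were 1992, 1868 and 2533 and its RPF reads 31162, 44229 and 16474. *H3f3a*, encoding histone H3.3, followed at 3.15 ± 0.38, and *H2afz*, encoding H2A.Z, was at 1.98 ± 0.49 (SD, n = 3). RNA-Seq was made from poly(A)-selected RNA and Ribo-Seq was not, and the part of this difference in histone TE was not tested. The other genes at the top were *Gm1821* at 3.04, *Mapk15* at 2.94, *Uqcr11*, a subunit of respiratory complex III, at 2.87 and *Hba-x*, described above, at 2.85. They were followed by *Imp3*, a nucleolar protein of ribosome assembly, at 2.83 and *Mrpl34*, a protein of the mitochondrial ribosome, at 2.81.

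The lowest TE belonged to genes with hardly any RPF read. *Plekhg4*, a guanine nucleotide exchange factor, had 301, 266 and 190 normalized mRNA reads but 0, 0 and 9 RPF reads, a log2 TE of −6.68, which became −4.54 with a pseudocount of 8. *Mamdc4* had log2 TE −6.03 and *Aoc2*, an amine oxidase, −5.92. *Rps27*, a protein of the small ribosomal subunit, was listed at −6.32 with 0, 6 and 13 RPF reads. Genes such as *Rps27*, *Gm1821* and *Ppia* have near-identical copies with which they can share reads, so that their values are uncertain, and the part of these copies in their TE was not tested. The others at the bottom were *1500012F01Rik* (−6.17), *4930512M02Rik* (−6.16), *Pol* (−6.14) and *AK139721* (−5.70), whose names give no established protein of the limb. *H19*, a long noncoding RNA chosen here after its values were seen, had 29865, 30946 and 27586 normalized mRNA reads and 1520, 1415 and 2832 RPF reads, a log2 TE of −4.02 ± 0.63 (SD, n = 3). It was thus among the abundant RNAs of FL with few ribosomes in all 3 replicates.

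The table identifies genes by UCSC transcript identifiers, and symbols were at hand for 3280 genes (29.2%), among them 92% of TE-low genes, 62.3% of TE-high genes and 16.1% of the rest. This is because the lists that pair identifiers with symbols were drawn up mainly from genes that the study had called. A network of receptors and signalling enzymes is the exception, since its symbols were listed whole. Its shares can be read against those of all genes, and the counts of the other groups describe their named members only. Of the 3280 genes with a symbol, 42.3% were TE-low and 13.3% TE-high (50.4% and 20.7% without replicate 3), and these shares are the ones beside which the counts of the other groups stand.

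In the signalling network, 150 of 169 symbols were found, and of these 38 were TE-low and 3 TE-high (25.3% and 2%, against 13.4% and 6.21% of all genes). The median log2 TE was −0.65, against −0.01 for all genes, and 114 of the 150 lay under the median gene. By replicate the network median was −1.04, −1.04 and −0.32. Without replicate 3, 50 network genes were TE-low and 4 TE-high. Families of the network differed in their counts, and these differences were not tested.

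Receptors spanned a broad range. Of 39 receptor tyrosine kinases (46 symbols listed), which relay growth factors such as FGFs, 3 were TE-low and 1 was TE-high. These shares of 7.69% and 2.56% were under the 13.4% and 6.21% of all genes. Without replicate 3, 7 were TE-low and 1 TE-high, and the median was −1.06, −0.93 and 0.14 in the 3 replicates. *Fgfr3*, one of the 4 FGF receptors, had 1949, 1906 and 1527 normalized mRNA reads and 322, 424 and 760 RPF reads, a log2 TE of −1.93 (SE 0.34; limma adjusted p = 0.0062). The other three were closer to the median gene and were not called, at −1.01 for *Fgfr1*, −1.08 for *Fgfr2* and −0.92 for *Fgfr4*. *Ryk*, a Wnt co-receptor, had −2.30, −2.27 and −2.15, about as low in replicate 3 as in the others, and *Aatk* had −2.42 ± 1.10. *Csf1r*, the receptor of macrophages, was the TE-high member at 1.75 ± 0.37 (SD, n = 3). *Pdgfra*, a receptor of limb mesenchyme, had log2 TE −1.18, −1.09 and 0.83 and changed side in replicate 3.

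Of 25 G protein-coupled receptors (31 symbols listed), 10 (40%, against 13.4% of all genes) were TE-low and 0 TE-high, with all replicates and without replicate 3. At an unadjusted p under 0.05 by limma 14 lay under and 1 over the median gene. Of all 11231 genes 3408 lay under and 3280 over it at that p, and such counts of the network's families stand beside these. In the other groups naming favours called genes, so that the same base does not serve there. Some had few reads, such as *Gpr135*, an orphan receptor with 3.21, 4.26 and 34.3 normalized RPF reads. *Gpr63*, another orphan receptor, had log2 TE −3.53, −3.0 and −1.65. *Gpr56*, an adhesion receptor, was at 0.64 and *Gpr107* at 0.14, and neither was called. The median of this family was −1.10, −1.25 and −0.68 by replicate.

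Among enzymes that make second messengers, 6 of 8 adenylyl cyclases, which make cyclic AMP, were TE-low and 0 TE-high. The TE-low share was 75%, against 13.4% of all genes, of which 6.21% were TE-high. At an unadjusted p under 0.05 by limma 8 lay under and 0 over the median gene. The median of the family was −3.36, −2.82 and −1.03. Without replicate 3, 8 were TE-low. *Adcy5* had 761, 904 and 782 normalized mRNA reads and 30.5, 89.5 and 251 RPF reads, with log2 TE −4.60, −3.34 and −1.65. *Adcy1* followed at −5.11, −3.14 and −1.91, while *Adcy3* and *Adcy7* at −1.30 and −1.57 were not called. Replicate 1 was the lowest in both called examples.

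Of 8 phospholipase C enzymes, which cleave the lipid PIP2, 5 were TE-low and 0 TE-high, as were 5 and 0 of 8 subunits of phosphoinositide 3-kinase (PI3K). The TE-low share was 62.5% in both, against 13.4% of all genes. Leaving out replicates 1, 2 and 3 in turn gave 3, 2 and 7 TE-low phospholipase C genes and 3, 4 and 5 TE-low PI3K genes, and a pseudocount of 8 gave 3 for phospholipase C. At an unadjusted p under 0.05 by limma, 7 phospholipase C and 6 PI3K genes lay under the median gene and 0 over it. *Plce1* had log2 TE −3.99, −3.96 and −1.01 and *Plcg1*, the isoform bound by growth factor receptors, −3.37, −3.28 and −0.68. Phospholipase C had a median of −0.34 in replicate 3, against −2.25 and −2.34 in the others. In PI3K, the catalytic subunit *Pik3cd* was at −3.05 and the regulatory subunit *Pik3r5* at −2.35, a call lost without replicate 1, whereas the regulatory subunits *Pik3r1* and *Pik3r3* were at 0.03 and −0.53. The 22 genes listed as effectors of second messengers, among them protein kinases A and C and AKT, had a median of 0.01. Of them 1 was TE-low and 1 TE-high (4.55% each, beside 13.4% and 6.21% of all genes). The counts were the same without replicate 3, and 0 of both without replicate 1. The list also holds *Pdk1*, *Pdk2* and *Pdk3* at −0.52, 0.34 and 0.19. These are symbols of pyruvate dehydrogenase kinases, which are not such effectors. Without replicate 2 the TE-high call alone was lost. The TE-low gene was *Prkcz*, an atypical protein kinase C, at −1.88, a call lost without replicate 1. *Akt1*, a kinase downstream of PI3K, had log2 TE −1.58, −1.52 and −1.33 and was not called.

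In the MAP kinase cascade, the TE-low calls of the fit over all replicates lay in the top tier. Of all genes 13.4% were TE-low and 6.21% TE-high. Of 11 MAP3Ks, the kinases at the top of the cascade, 7 were TE-low and 0 TE-high, with 10 under and 0 over the median gene at an unadjusted p under 0.05 by limma and a median of −1.55, −2.43 and −1.20. Without replicate 3, 8 were TE-low. Of 7 MAP2Ks, the middle tier, 0 were TE-low and 0 TE-high, with 0 under and 2 over the median gene at an unadjusted p under 0.05 by limma. Of 11 MAPKs, the last tier, 0 were TE-low and 1 was TE-high, with 4 under the median gene at an unadjusted p under 0.05. At that p 3408 of all 11231 genes lay under the median gene and 3280 over it. The 2 of 7 MAP2Ks and the 4 of 11 MAPKs were thus near the shares of all genes. In lists as short as 7 and 11 genes, a TE-low count of 0 is also close to the 13.4% of all genes. Without replicate 2, 1 MAPK was TE-low, and without replicate 3, 2 were, while the MAP2K count stayed at 0 in both. Wherever a count of 0 is given for a family of the network, edgeR and DESeq2 on all replicates also called 0. The difference between the tiers was not tested.

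*Map3k10* had 1618, 1716 and 1541 normalized mRNA reads and 122, 98 and 239 RPF reads, a log2 TE of −3.72, −4.13 and −2.70. It was low in all 3 replicates. *Map3k13* was at −2.60, while *Map3k7* (TAK1) and *Map3k1* at −0.62 and −0.22 were not called. In the middle tier *Map2k1*, which encodes MEK1, was at 0.64 and *Map2k7* at −0.60. *Mapk15*, an atypical MAP kinase, was the TE-high member with 153, 148 and 152 mRNA reads against 1324, 2487 and 494 RPF reads. *Mapk6* and *Mapk7*, both at −1.52, lay just inside the 3-fold line. Among 11 Ras, Raf and adaptor genes 1 (9.09%, beside 13.4% of all genes) was TE-low, the Ras exchange factor *Sos2* at −2.28. *Grb2*, the adaptor that binds it, was at 1.56 without a call. Without replicate 3, 2 of the 11 were TE-low and 1 TE-high.

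**Figure D2:**
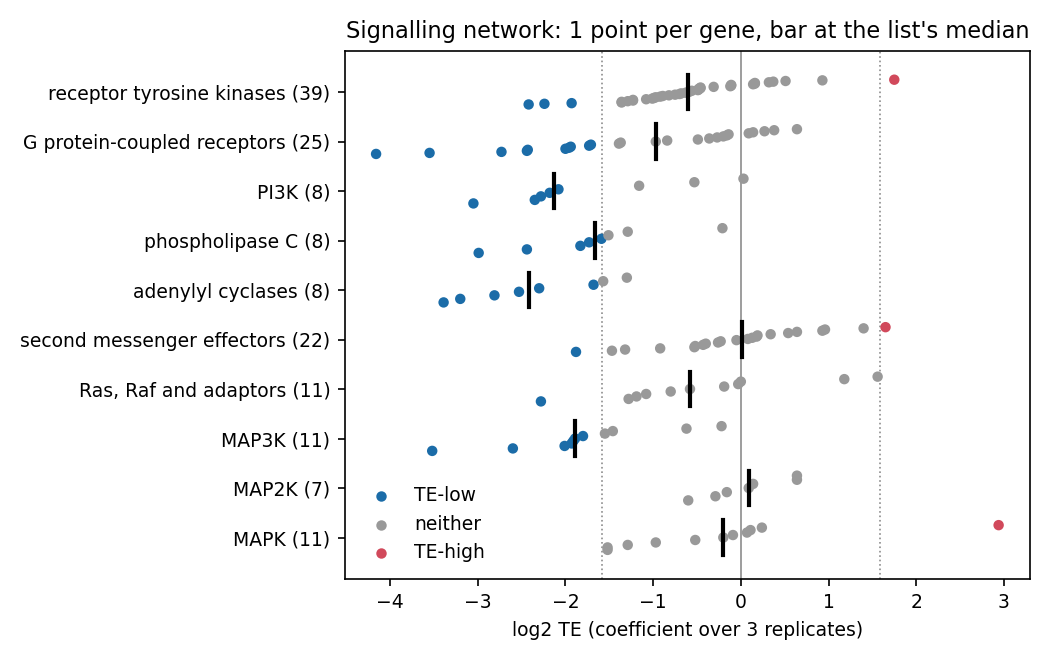
Log2 TE (horizontal axis) of each of 150 signalling network genes by family, with 1 point per gene, a black bar at the family's median and dotted lines at 3-fold from the median gene. Adenylyl cyclases, PI3K, MAP3K and phospholipase C have medians of −2.42, −2.13, −1.89 and −1.66. The genes listed as second messenger effectors, MAP2K and MAPK lie at 0.01, 0.09 and −0.20, and these families also have the shorter CDS.

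All 150 network genes could be matched to a GENCODE M21 transcript, which allowed their CDS length to be set beside TE. Across these genes Spearman's rank correlation of log2 TE with CDS length was −0.49 and −0.47 in replicates 1 and 2 and −0.02 in replicate 3. In the 3 NT replicates it was 0.01, 0.05 and −0.12. The mRNA level had a rank correlation with length of 0.2, 0.22 and 0.19 in the FL replicates, whereas the RPF level had −0.13, −0.07 and 0.16. These are descriptions across genes that share the same libraries. The relation was thus present in 2 of 3 FL replicates and in none of the NT replicates. By family, median CDS was 3394 nt for adenylyl cyclases, 3748 for phospholipase C, 2877 for PI3K and 2826 for MAP3Ks. It was 1275 nt for the listed second messenger effectors, 1191 for MAP2Ks and 1269 for MAPKs. Receptor tyrosine kinases were at 2979 nt and G protein-coupled receptors at 1503 nt, with TE medians of −0.6 and −0.97. The families of lowest TE were thus among the longer ones, and the part of length in their TE was not tested.

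The 16 network genes with a CDS over 4000 nt had a median log2 TE of −1.88 and −2.03 in replicates 1 and 2 and of −0.03 in replicate 3. The 71 genes of 2000 to 4000 nt had −1.35, −1.20 and −0.35, and the 55 genes of 1000 to 2000 nt had −0.38, −0.47 and −0.54. Only 8 network genes were shorter, with 1.51, 1.16 and 0.72. The longer classes were thus the lower in replicates 1 and 2, and in replicate 3 the order of the classes over 1000 nt was turned round.

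**Figure D3:**
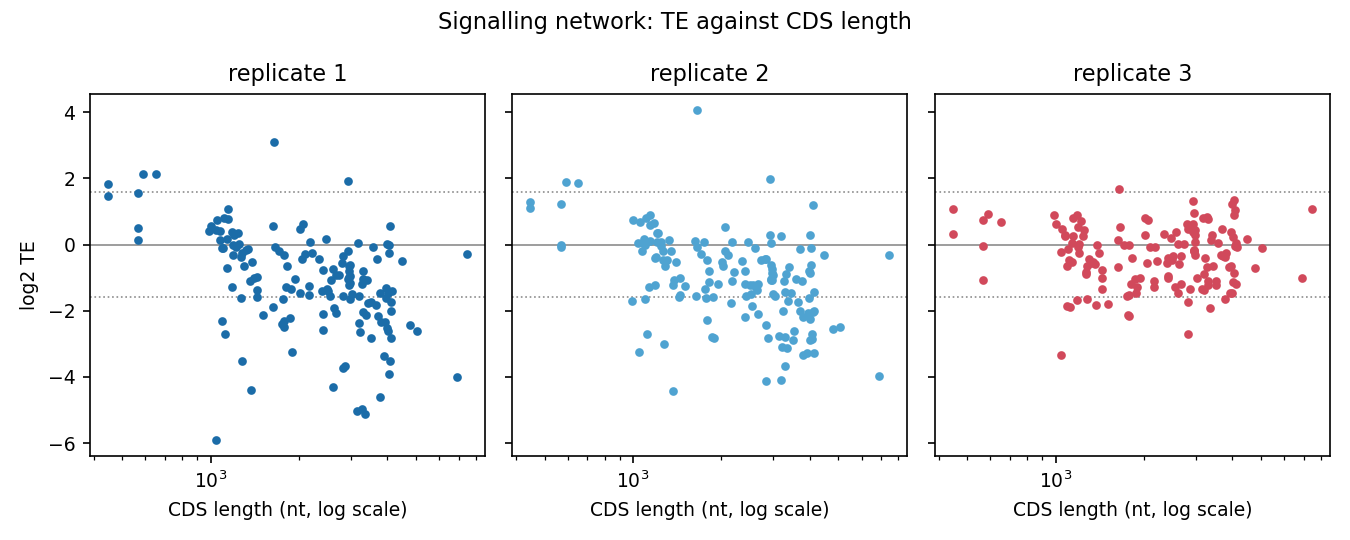
Log2 TE (vertical axis) against CDS length in nt (horizontal axis, log scale) of the 150 signalling network genes, 1 panel per FL replicate, with dotted lines at 3-fold from the median gene. Longer genes lie lower in replicates 1 and 2 (rank correlation −0.49 and −0.47) and show no slope in replicate 3 (rank correlation −0.02).

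The 38 TE-low network genes had a median CDS of 3198 nt against 2100 nt for the 109 that were neither TE-low nor TE-high, and median 5′-UTRs of 196 and 261 nt. An upstream ATG was present in 29 of the 38 and in 60 of the 109, and a start codon set as ANNATGG or GNNATGG (A or G at position −3 and G at +4, read on the transcript strand) in 16 of 38 and 54 of 109, against 38.8% of 21603 coding genes. Among 1352 TE-low genes with an annotated transcript the median CDS was 3270 nt and 68.6% held an upstream ATG. For all 21603 annotated coding genes these were 1185 nt and 51.1%. That base includes genes outside the 11231 tested, so the gap cannot be credited to TE. The same check on TE-high genes was void, since only 60.7% of them had a transcript, and the groups other than the network share the uneven naming described above.

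Genes of the hedgehog pathway with low TE included receptors and transcription factors. Hedgehog ligand relieves Smoothened (SMO) from inhibition by its receptor Patched (PTCH1), at the primary cilium, which sets the activity of the GLI factors. Of 28 genes of the pathway and the cilium found (36 symbols listed), 17 (60.7%) were TE-low and 1 was TE-high, beside 42.3% and 13.3% of genes with a symbol, and 24 lay under the median gene. The group's median was −2.39, −2.23 and −0.89 by replicate, and without replicate 3, 22 were TE-low and 1 TE-high.

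*Ptch1* had 4089, 4338 and 4375 normalized mRNA reads and 346, 405 and 1916 RPF reads. Its log2 TE was −3.56, −3.43 and −1.21, a TE 6.65-fold under that of the median gene in the fit over 3 replicates (log2 −2.73, SE 0.47; limma adjusted p = 0.0061). The mRNA was level across replicates, and the RPF count of replicate 3 was above both others. *Gli1*, a target and effector of the pathway, had 2771, 2557 and 2861 mRNA reads and 520, 561 and 838 RPF reads, with log2 TE −2.41, −2.20 and −1.79, low in all 3. *Smo* was also low in all 3, at −2.18, −1.76 and −1.58.

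*Gli3*, whose protein acts mainly as a repressor in the limb, had log2 TE −2.86, −2.46 and −0.37. Its call rested on replicate 1, since without it log2 TE was −1.41. In the cilium, *Dync2h1*, the heavy chain of the retrograde transport motor, had log2 TE −4.69, −4.02 and −1.67 and *Cep290*, a protein of the transition zone, −3.03, −4.12 and −1.80. *B9d2*, another transition zone protein, was the TE-high member, at 2.14, 2.81 and 1.32, and the transport protein *Ift27* was at 1.04 and not called.

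The main start codon and the upstream ATGs of *Ptch1* and *Gli1* are shown because both genes were TE-low in FL and carried an upstream ATG in the annotated leader. Coordinates are those of the ATG, in capitals, on GRCm38/mm10 in GENCODE M21 transcripts with the longest CDS. This transcript need not be the UCSC isoform on which reads were counted, and an ATG is a description of the sequence, not of a translated site. The annotated leaders of *Ptch1* and *Gli1* were 215 and 556 nt, and the study's mapping of 5′ ends in embryonic tissue gave longer ones. Upstream ATGs outside the annotated leader are not shown, and the numbering follows that leader only.
Ptch1 main start, chr13:63565518-63565520, minus strand: ggcggcggcaacATGgcctcg
Ptch1 upstream ATG 1, chr13:63565702-63565704, minus strand: gactcacgcgcaATGtggcaa
Ptch1 upstream ATG 2, chr13:63565694-63565696, minus strand: cgcaatgtggcaATGgaaggc
Gli1 main start, chr10:127338518-127338520, minus strand: ccctgagacgccATGttcaat
Gli1 upstream ATG 1, chr10:127341258-127341260, minus strand: cttgaggttgggATGaagaag
The first upstream ATG of *Ptch1* opened a frame of 66 codons that overlapped the main start in another frame, and the second a frame of 22 codons that ended before it. The upstream ATG of *Gli1* lay 82 nt before the main start on the transcript and its frame of 38 codons overlapped it.

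Wnt and Hippo genes were TE-low in a share nearer to that of genes with a symbol. Wnt signals stabilise β-catenin by disabling a destruction complex built on APC, and the Hippo kinases restrain the transcriptional co-activator YAP. Of 29 genes, 16 (55.2%) were TE-low and 1 TE-high, beside 42.3% and 13.3% of genes with a symbol, with medians of −1.95, −1.93 and −0.63. Leaving out replicates 1, 2 and 3 in turn left 10, 10 and 17 TE-low genes, with 1 TE-high each time. *Apc* had 4937, 4975 and 4786 normalized mRNA reads and 467, 499 and 1606 RPF reads, a log2 TE of −3.40, −3.33 and −1.59, past 3-fold in each replicate. *Taok2*, a kinase upstream of Hippo, had −3.38, −2.69 and −1.43. *Ctnnbip1*, a small inhibitor of β-catenin, was TE-high at 2.09, 2.16 and 1.21, and the ligand *Wnt3* was at 1.18 without a call.

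Most genes of limb patterning were not called. Of 32 genes found (48 symbols listed), 8 (25%) were TE-low and 1 TE-high, beside 42.3% and 13.3% of genes with a symbol. Medians were −1.13, −0.82 and −0.89. Without replicate 3, 13 were TE-low and 2 TE-high. The 5′ Hoxd genes that pattern the distal limb were moderately low in every replicate. *Hoxd13* had log2 TE −0.67, −0.53 and −0.85, *Hoxd11* −1.32, −1.09 and −1.13, and *Hoxd10* −0.91, −0.78 and −1.68, and none of them passed the 3-fold threshold, at limma adjusted p of 0.049, 0.0084 and 0.015. The 3′ genes *Hoxd4* and *Hoxa6*, which mark more anterior positions, were TE-low at −3.13 ± 0.48 and −2.87 ± 0.83 (SD, n = 3), on mRNA levels of 407 to 428 and 303 to 393. *Hoxc6* was at 1.17 and not called.

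Targets and antagonists of FGF signalling lay near or above the median gene. *Dusp6*, the phosphatase that limits ERK, had 3826, 3833 and 3478 normalized mRNA reads and 7639, 8080 and 5935 RPF reads, a log2 TE of 1.00, 1.06 and 0.76. The ETS factors *Etv4* and *Etv5* were at 0.08 and 1.07, and the Sprouty antagonists *Spry1*, *Spry2* and *Spry4* were at −0.37, 0.04 and 0.89. None was called at 3-fold. *Etv4* and *Spry2* lay over the median gene in replicates 1 and 2 and under it in replicate 3.

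In BMP signalling, the receptor *Bmpr2* had log2 TE −1.83, −2.20 and −0.41, under the 3-fold threshold over 3 replicates at −1.48 and past it without replicate 3 at −2.02. *Msx1*, a target of BMP in the bud mesenchyme, was at 0.93, 1.26 and 0.10 (limma adjusted p = 0.066 for 0.76). *Snai1*, a repressor of epithelial genes, was the TE-high member at 2.29, 2.61 and 1.34. *Bmpr2* and *Msx1*, neither called over 3 replicates, thus lay on opposite sides of the median gene, a difference that was not tested. These single genes do not stand for BMP receptors and targets at large.

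**Figure D4:**
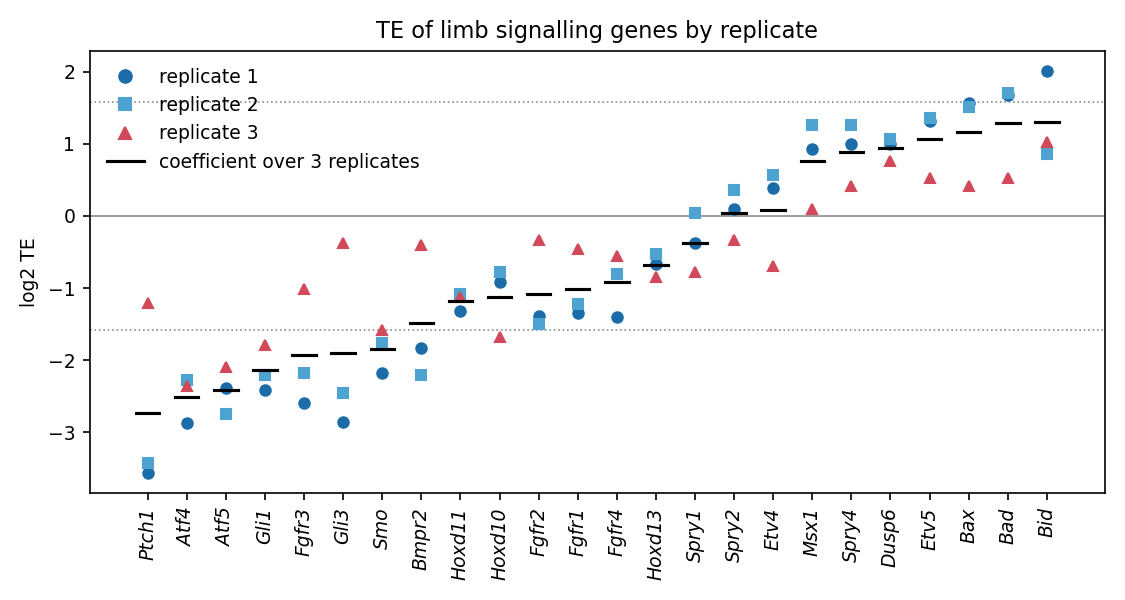
Log2 TE (vertical axis) of 24 genes of limb signalling, the stress response and apoptosis in each FL replicate, ordered by the coefficient over 3 replicates (bar), with dotted lines at 3-fold from the median gene. *Ptch1* and *Gli3* have replicate 3 far above the other two (−1.21 and −0.37), whereas *Atf4*, *Atf5* and *Gli1* are low in all 3.

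Some mRNAs are known from earlier work to carry a regulatory uORF. Of 12 such mRNAs, 6 (50%) were TE-low and 1 TE-high, a TE-low share near the 42.3% of genes with a symbol, and their median was −1.54, −1.78 and −1.28. Without replicate 3, 7 were TE-low and 1 TE-high, and without replicate 2 the TE-high count was 0. *Atf4*, the transcription factor of the integrated stress response and the textbook case of uORF control, had 3889, 3317 and 3305 normalized mRNA reads and 529, 688 and 648 RPF reads. Its log2 TE was −2.87, −2.28 and −2.36, a TE 5.69-fold under the median gene (SE 0.25 on the log2 scale; limma adjusted p = 0.0053). Its relative *Atf5* had −2.39, −2.74 and −2.09, with 357, 470 and 344 mRNA reads. *Slc35a4*, whose leader encodes a small mitochondrial protein, had −3.18, −3.33 and −2.79. All 3 replicates of these genes passed 3-fold. *Ddit3*, encoding CHOP, was at −0.52 and *Eif2d*, an initiation factor, at −0.15, and neither was called.

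The start codon and upstream ATGs of *Atf4* are shown as the reference case, followed by the start codons of the TE-high genes *Actb* and *H2afx*, whose annotated leaders of 109 and 68 nt held 0 upstream ATGs. The ATG is in capitals, with its GRCm38/mm10 position in GENCODE M21.
Atf4 main start, chr15:80256299-80256301, plus strand: aagccccacaacATGaccgag
Atf4 upstream ATG 1, chr15:80255303-80255305, plus strand: cacttttctctcATGgggcct
Atf4 upstream ATG 2, chr15:80255582-80255584, plus strand: cttgcggccaccATGgcgtat
Atf4 upstream ATG 3, chr15:80255681-80255683, plus strand: ccggcctaagccATGgcgctc
Actb main start, chr5:142905684-142905686, minus strand: caccagttcgccATGgatgac
H2afx main start, chr9:44334762-44334764, plus strand: acctcgtacactATGtccgga
Upstream ATG 2 of *Atf4* opened a frame of 3 codons that closed before the main start, and upstream ATG 3 a frame of 59 codons that ran past it in another frame. Upstream ATGs were annotated in TE-high genes too, with 2 each in the leaders of *Uqcr11* and *Hba-x*.

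The named chromatin modifiers, which write, read or remove histone marks, were low. All 62 symbols of this list were found, and naming favours called genes, so the class as a whole is not described. Of 63 entries (*Chd3* has 2 identifiers), 52 (82.5%, beside 42.3% of genes with a symbol) were TE-low and 0 TE-high, and all 63 lay under the median gene. At an unadjusted p under 0.05 by limma 63 were under it and 0 over it, and edgeR and DESeq2 also called 0 TE-high. Medians were −2.59, −2.53 and −1.19, and 58 were TE-low without replicate 3. *Hdac4*, a histone deacetylase, had the lowest value at −5.55, on 0, 2.13 and 29.9 normalized RPF reads. *Kmt2c*, an H3K4 methyltransferase, had 6801, 6501 and 7040 mRNA reads and 385, 362 and 2016 RPF reads, a log2 TE of −4.14, −4.18 and −1.82. *Smarcad1*, a remodeller, and *Hdac7* were the highest members with at least 100 mRNA reads, at −0.75 and −1.0.

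Of 30 motor proteins found (32 symbols listed), the kinesins, dyneins and myosins, 21 (70%) were TE-low and 0 TE-high, with 0 TE-high by edgeR and DESeq2 too, and 30 were under the median gene at an unadjusted p under 0.05 by limma and 0 over it. Medians were −2.52, −2.35 and −0.92, with 27 TE-low without replicate 3. *Kifc2*, a minus-end kinesin, was at −4.07 and *Myo9a*, an unconventional myosin, at −3.59. Of 24 matrix and adhesion genes found (26 symbols listed), 10 (41.7%) were TE-low and 1 TE-high, with medians of −1.64, −1.64 and 0.02. The TE-low share was near the 42.3% of genes with a symbol. Without replicate 3, 12 were TE-low and 2 TE-high, and without replicate 1 also 2 were TE-high. *Adamts6*, a secreted protease, had −4.64, −5.82 and −2.39, and *Itga10*, a collagen-binding integrin, −4.17, −4.62 and −2.77. *Sparc*, a secreted matrix glycoprotein, was TE-high at 1.93, 2.16 and 1.46.

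The named mitochondrial proteins made in the cytosol stood at the other end, and naming favours called genes here too. Of 43 respiratory chain genes, 34 (79.1%, beside 13.3% of genes with a symbol) were TE-high and 0 TE-low, with medians of 2.21, 2.26 and 1.02, and 40 were TE-high and 1 TE-low without replicate 3. At an unadjusted p under 0.05 by limma 1 was under the median gene and 42 over it, and edgeR and DESeq2 also called 0 TE-low. *Uqcr11* had 476, 500 and 486 normalized mRNA reads and 4580, 5403 and 1881 RPF reads, a log2 TE of 3.27, 3.42 and 1.93. *Cycs*, encoding cytochrome c, was at 2.68, 2.66 and 1.46. The exception was *Ndufs1*, the large subunit of complex I, at −1.68, −1.72 and 0.12 (limma adjusted p = 0.053). Of 49 genes of the mitochondrial ribosome and protein import, 32 (65.3%) were TE-high and 1 TE-low, with medians of 2.14, 2.23 and 0.93, and 40 and 1 without replicate 3. *Mrpl34* had the highest value of them at 2.81, and *Tomm40l*, an import pore protein, was at −1.40. Median CDS was 387 nt for the respiratory chain and 477 nt for the mitochondrial ribosome and import. For chromatin modifiers it was 5148 nt and for motor proteins 4944 nt. Ribosomal proteins, described next, had 386 nt and a TE median of 0.8. The part of CDS length in the TE of these groups was not tested.

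Ribosomal proteins differed among replicates. Of 33 found, 1 was TE-low (*Rps27*) and 4 were TE-high (3.03% and 12.1%, beside 42.3% and 13.3% of genes with a symbol). The median was 1.14 and 1.15 in replicates 1 and 2 and −0.02 in replicate 3. With replicates 1, 2 and 3 left out in turn, 1, 3 and 8 were TE-high. *Rpl14* had 2.63, 2.96 and 2.01 and *Rpl36al* 2.41, 2.24 and 0.92, a call lost without replicate 1. *Rps12* was at −0.07, −0.27 and −1.26. *Rpl41*, one of the shortest proteins known, was at 1.52, 0.33 and −0.58, and since the first 15 and the last 5 codons were left out of the counts, its value rests on few codons.

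Of 14 translation factors and regulators, 4 were TE-low and 3 TE-high (28.6% and 21.4%, beside 42.3% and 13.3% of genes with a symbol). Medians were −0.58, −0.49 and −0.48. Without replicate 3, 6 were TE-low and 5 TE-high, and without replicate 1, 3 and 1. *Eif4ebp1*, the repressor of cap-dependent initiation that is released by mTOR, was TE-high at 2.49, 2.97 and 1.30. Its relative *Eif4ebp3* was TE-low at −2.98 on 3.21, 10.7 and 58.2 normalized RPF reads. *Guf1*, a mitochondrial elongation factor, was TE-low at −2.31 ± 0.41 and *Eif1b*, an initiation factor, TE-high at 1.70 ± 0.93 (SD, n = 3), a call lost without replicate 1 or 2.

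Apoptosis genes lay on both sides of the median gene. Of 14, 4 were TE-low and 3 TE-high (28.6% and 21.4%, beside 42.3% and 13.3% of genes with a symbol), with medians of 1.57, 1.39 and 0.60. Without replicate 3, 4 were TE-low and 5 TE-high. The survival genes *Cflar*, an inhibitor of caspase-8, and *Bcl2l2*, encoding BCL-w, were TE-low at −2.76 and −2.35. The killers *Bax*, *Bad* and *Bid* were above the median gene at 1.16, 1.29 and 1.30, with limma adjusted p of 0.018, 0.014 and 0.018, short of the 3-fold threshold. *Endog*, a mitochondrial nuclease, was TE-high at 2.58, 2.60 and 1.02. Whether survival and death genes differ was not tested.

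**Figure D5:**
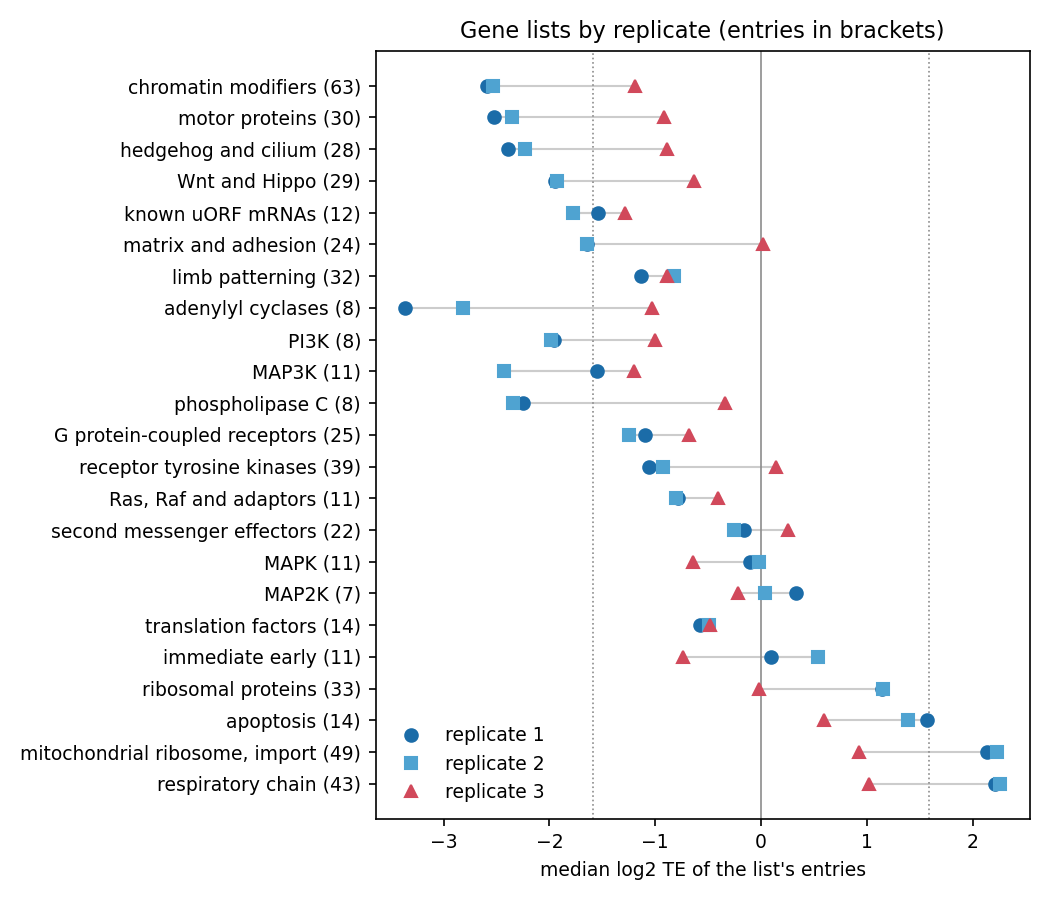
Median log2 TE (horizontal axis) of each gene group in the 3 FL replicates, with the number of entries in brackets and dotted lines at 3-fold from the median gene. Replicates 1 and 2 lie far from 0 for chromatin modifiers (−2.59, −2.53) and the respiratory chain (2.21, 2.26), replicate 3 is nearer to 0 (−1.19, 1.02), and the uORF mRNAs have medians under 0 in all 3 (−1.54, −1.78, −1.28).

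Immediate early genes, which are induced within minutes of a stimulus, differed among the FL replicates in mRNA. *Fos* had 213, 255 and 800 normalized mRNA reads but 122, 100 and 127 RPF reads, a log2 TE of −0.80, −1.36 and −2.66. It was TE-low over 3 replicates at −1.61, and at −1.08 without replicate 3 it was not. *Klf2* had 87.9, 109 and 366 mRNA reads against 558, 631 and 327 RPF reads, with log2 TE 2.65, 2.51 and −0.18. The mRNA was highest in replicate 3 for both. Of 11 such genes 2 were TE-low and 1 TE-high (18.2% and 9.09%, beside 42.3% and 13.3% of genes with a symbol), with medians of 0.10, 0.54 and −0.74. With replicates 1, 2 and 3 left out in turn, 3, 1 and 1 were TE-low and 0, 0 and 4 were TE-high, and with a pseudocount of 8 the counts were 0 and 1. *Jun* was at 1.57 and *Nr4a1* at −1.41, both without a call.

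Cells other than mesenchyme left their own mRNAs in FL, and in bulk tissue fewer cells of a type and less RNA per cell cannot be told apart. Of 9 macrophage markers 6 were found, and naming favours called genes. Of these, 6 were TE-high and 0 TE-low, as also without replicate 3, beside 13.3% and 42.3% of genes with a symbol. These shares also stand beside the counts of the other markers below. The count describes the named markers only and not macrophage mRNAs at large. At an unadjusted p under 0.05 by limma 0 lay under the median gene, and edgeR and DESeq2 called 0 TE-low. Medians were 2.39, 2.67 and 1.15, and the summed mRNA level was 895 to 918 normalized reads. *Cx3cr1*, a chemokine receptor of microglia and macrophages, had log2 TE 2.46, 3.22 and 1.63. *C1qc* and *C1qb*, of complement, were at 1.89 and 1.84, the latter call lost without replicate 1. Of 8 red cell markers, 4 were TE-high and 1 TE-low, as also without replicate 3, with a summed mRNA level of 14632 to 25110. *Hba-a2*, an alpha globin, was at 2.54, and its near-identical copy makes the value uncertain. *Ermap*, a membrane protein of red cells, was TE-low at −2.02. Of 7 endothelial markers 1 was TE-high, the junction protein *Cldn5* at 2.16, and of 3 epithelial markers 1 was TE-high, with *F11r* and *Epcam*, both adhesion proteins, at 1.48 and 1.39 without a call. Without replicate 3 the TE-high counts were 2 and 2, with 1 TE-low endothelial marker, and without replicate 2 the epithelial count was 0. *Mylpf*, a muscle light chain, was at 1.56 and not called, and without replicate 3 it was TE-high at 1.87. The neuronal markers *Dcx*, *Ina* and *Nefm* were at 0.95, −0.06 and −0.39. The part of these cells in the TE of genes shared by several cell types was not tested.

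TE-low and TE-high genes of FL were on the same side in NT for the most part. In the mean of the NT replicates 97.7% of the 1508 TE-low genes lay under the NT median gene and 97.3% of the 698 TE-high genes lay over it. The difference in TE between FL and NT was tested by an interaction term in limma, called at an adjusted p under 0.2 and a 2-fold difference. TE was lower in FL for 31 genes (0.276%) and higher for 14 (0.125%). In the signalling network 1 of 150 genes was lower, *Map3k13*, and 0 were higher. With the replicate number as a block within tissue 3 genes were lower, 1 was higher and 0 were of the network, *Map3k13* being at an adjusted p of 0.256.

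The count of tissue differences depended on which replicate entered. Without replicate 3 it was 4833, of which 2504 were lower and 2329 higher in FL, with 54 and 7 in the signalling network. Without replicate 1 or replicate 2 it was 0, with 160 and 265 genes at an unadjusted p under 0.05 by limma, against 1901 with all replicates. The replicate number left out applies to both tissues. *Ptch1* was at −1.03 in NT, with −0.82, −0.96 and −1.30 by replicate, and at −2.73 in FL, and its difference of −1.72 (SE 0.68) did not pass, with an adjusted p of 0.29. The 2 FL replicates at −3.56 and −3.43 lay under every NT replicate, and FL replicate 3 at −1.21 lay within the NT range. *Atf4* was at −2.93 in NT and −2.51 in FL, a difference of 0.40 (SE 0.26; adjusted p = 0.36).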

How the data were processed

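Ribo-Seq and RNA-Seq of forelimb buds and neural tubes were deposited as 1 table of 12 libraries. Values are signal, reads per gene that the authors divided by the DESeq effective library size. Per the methods of the study, adapters were removed with cutadapt, rRNA, tRNA and snRNA reads were discarded, and uniquely mapped reads (Bowtie2 is named in the submitters' processing notes) on the canonical UCSC isoforms of mm10 were counted on the coding sequence, leaving out its first 15 codons and its last 5. RNA-Seq was poly(A)-selected. The sorted mesoderm table was not used.

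In the FL and NT libraries 100% of values were whole reads within 0.1 read once divided by the worth of 1 read, which gave depth and let count models be run as alternatives. edgeR 4.0.16 (quasi-likelihood test) called 1509 TE-low and 706 TE-high genes on these reads and DESeq2 1.42.0 called 1528 and 711. Because the deposited values are normalized, limma 3.58.1 (R 4.3.3) was the main test, on log2(value + 1) with a variance trend and no filter on low values, with library type and replicate number as terms, as in the study's model. Deviations of same-numbered libraries from their group means correlated at 0.049, 0.116 and 0.092. Benjamini-Hochberg adjustment was over all 11231 genes. Scripts were tested on simulated data.

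Symbols came from the study's supplementary gene lists. CDS, leaders and start codons came from GENCODE M21 on GRCm38, matched by symbol (98.3% of 3280). Members and gene lists were chosen with earlier results of these data known. Genes named were the 8 lowest and 8 highest called genes with at least 100 normalized reads over the FL libraries. Also named were the 5 TE-low and the 5 TE-high genes with the most mRNA reads. The 2 lowest and 2 highest of each list with at least 100 mRNA reads were added, and a set of limb, hedgehog, FGF, stress and apoptosis genes. A few genes named by this rule are not reported here.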

Additional observations from a re-analysis of the deposited data

Results flagged for a closer look

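Each of the following genes differed in TE between FL and NT by the interaction term in limma at an adjusted p under 0.2 and 2-fold, and none of these differences was called without replicate 1 or without replicate 2. With the replicate number as a block within tissue, *Hoxd4* was called at an adjusted p of 0.181 and the other 4 genes were not, each at 0.256.

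*Hoxd4* was at −3.03, −3.65 and −2.70 in FL and at −1.0, −0.61 and −0.73 in NT, a difference of −2.37 (SE 0.36, adjusted p = 0.049). *Map3k13* was at −3.66, −2.81 and −1.33 in FL and at 0.78, 0.43 and −0.27 in NT, a difference of −2.93 (SE 0.58, adjusted p = 0.13), on 10, 10 and 44 RPF reads in FL. *H19*, chosen after its values were seen, was at −4.29, −4.47 and −3.30 in FL and at −2.44, −1.87 and −2.24 in NT, a difference of −1.86 (SE 0.39, adjusted p = 0.15). In all 3 the FL replicates lay under the NT replicates.

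*Ctnnbip1* was at 2.09, 2.16 and 1.21 in FL and at −0.87, 0.31 and 0.01 in NT, a difference of 1.98 (SE 0.46, adjusted p = 0.2 when rounded, just inside the limit). *Hoxc6* was at 1.66, 1.59 and 0.27 in FL and at −0.84, −0.63 and −0.24 in NT, a difference of 1.72 (SE 0.38, adjusted p = 0.16). *Hoxd4* and *Hoxc6* had less mRNA in FL than in NT, by −2.73 and −2.96 on the log2 scale.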

How the results depend on the processing

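Leaving out 1 replicate at a time gave 1184 to 2027 TE-low genes (1508 with all), 400 to 1430 TE-high genes (698; 400 and 402 without replicates 1 and 2, and 1430 without replicate 3), a fold between the 5th and 95th percentile of 12 to 29.2 (15.8) and 0 to 4833 genes with a tissue difference in TE (45). A 2-fold threshold in place of 3-fold gave 2587 TE-low and 2120 TE-high genes. The TE-low count was 1439 and 1510 with pseudocounts of 8 and 0.5, 1416 with a minimum mean of 100 normalized reads, 1501 with TE centred once, 1509 with edgeR and 1528 with DESeq2.

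The replicate number was kept as a block because the study's model has it, although deviations of same-numbered libraries correlated at only 0.049, 0.116 and 0.092. Without the block there were 1490 TE-low and 695 TE-high genes. In the tissue comparison the block within tissue left 4 of 45 calls in number, with 2145 genes at an unadjusted p under 0.05 against 1901. Over the 154 genes that the rule for named genes chose, 1617 of 1686 alternative values kept the side of the threshold, 50 moved past it, 19 moved under it, and none changed sign while called. Of the 50, 31 came from the 2-fold threshold, which lowers the line and leaves the value as it was. Of the 19, leaving out replicates 1, 2 and 3 gave 10, 6 and 1. Centring once, edgeR, DESeq2 and no block kept all 154, so the pooled count rests largely on settings that change little. Depth limits genes such as *Plekhg4*, whose 0, 0 and 9 RPF reads give a log2 TE of −6.68 or −4.54 by pseudocount.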
